A study of Homo sapiens with 9 samples.

Results

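Cystatins are small proteins that bind and block cysteine proteases of the papain family, the cathepsins foremost among them. Cystatins of type 1, such as cystatin B, lack a signal peptide and act mainly inside the cell, whereas those of type 2 carry one and are secreted, as with cystatin C and the salivary cystatins SN, SA and S. Tumour cells release both cathepsins and cystatins, and the balance between protease and inhibitor bears on the breakdown of matrix around the cell.

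The 6 genes described here are CST1 (cystatin SN), CST2 (cystatin SA), CST4 (cystatin S), CST3 (cystatin C), CST7 (cystatin F, best known from leukocytes) and CSTB (cystatin B, or stefin B). They were picked by symbol from 60719 genes in a table of transcript levels, and each matched 1 row. The family was taken up because CST1 and CST4 were already known, from these same libraries, to be lower with TIS sEV than in the other groups. Values of the 6 genes in the comparisons that involve TIS sEV are therefore given as a description. Counts of them past a threshold there stand only beside the same share of all genes, and are no evidence for these genes. Their single p-values are given only for Cont sEV vs No sEV. The libraries of both these groups also entered the choice of the family, so this comparison is not independent of it.

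The libraries are bulk RNA-seq of MDA-MB-231, an established human line of triple-negative breast cancer, labelled wild type. Recipient cells were kept for 72 h in 5% exosome-free medium in 3 ways: without added small extracellular vesicles (No sEV, n = 3), with vesicles from control donor cells (Cont sEV, n = 3), or with vesicles from donor cells in therapy-induced senescence (TIS sEV, n = 3). Donors were cells of the same line given DMSO or nocodazole, which blocks microtubule assembly, at 100 ng/ml for 72 h and then left for 72 h in vesicle-free medium, from which vesicles were collected by centrifugation. Cont sEV and TIS sEV are read here as the products of DMSO and nocodazole donors respectively. Senescence of the donors and their exposure to the drug cannot be told apart in this design. Nothing in the labels states that replicates were cultured separately, and the p-values reflect the scatter among these libraries alone, part or all of which may be technical.

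Levels are given as TPM, a relative abundance scaled by transcript length that sums to 1000000 in each library and keeps no read depth, so the depth is unknown. A gene was tested if it reached 1 TPM in at least 3 of the 9 libraries, which 13879 genes did, all 6 cystatin genes included. Libraries were alike, with Pearson's r across genes from 0.991 to 0.994 within groups and from 0.992 to 0.994 between them. Markers matched the label: VIM, CD44, AXL, MSN and CAV1 summed to 3762 to 3828 TPM per library with No sEV, 3727 to 3834 TPM with Cont sEV and 3866 to 3955 TPM with TIS sEV, while ESR1, PGR, CDH1 and FOXA1 averaged under 1 TPM in every group and GATA3 was at 3.33 to 3.67 TPM. Of the other cell types checked, the salivary acinar markers STATH and AMY1A were listed at 0 in all libraries, and HTN1 was at most at 0.122 TPM. The fibroblast markers summed to at most 0.186 TPM. The endothelial markers CDH5 and VWF averaged under 1 TPM in every group, but PECAM1 averaged 1.83 TPM with No sEV, 2.07 TPM with Cont sEV and 1.45 TPM with TIS sEV. Summed over the 3 endothelial markers the libraries spanned 1.87 to 1.95, 2.10 to 2.30 and 1.49 to 1.80 TPM in the same order, and the part of this in the cystatin values was not tested.

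CST1, CST4, CST2 and CST3 lie next to each other on chromosome 20, all on the minus strand. On GRCh38 (GENCODE 29), CST3 spans chr20:23626706-23638473, CST4 chr20:23685640-23689040, CST1 chr20:23747553-23751268 and CST2 chr20:23823769-23826731. CST7 lies farther along the same chromosome on the plus strand, at chr20:24949230-24959928, and CSTB is on chromosome 21 at chr21:43772511-43776445. All 6 are annotated as protein-coding. The main transcripts of CST1, CST2 and CST4 each have 3 exons and 423 coding bases without the stop codon, and differ little in length, from 748 to 760 bases. Aligned in pairs, their coding sequences were identical at 91.3% (CST1 and CST2), 92.7% (CST1 and CST4) and 92.4% (CST2 and CST4) of positions, while CST1 and CST3 were identical at 72.1% of the aligned positions.

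This likeness bears on how short reads can be given to one gene or another, so the stretch of 90 coding bases in which the 3 close relatives differ least is shown, coding bases 260 to 349. The single position where they are not all the same is in capitals:
CST1: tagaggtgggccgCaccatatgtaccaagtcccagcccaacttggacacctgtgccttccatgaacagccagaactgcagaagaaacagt
CST2: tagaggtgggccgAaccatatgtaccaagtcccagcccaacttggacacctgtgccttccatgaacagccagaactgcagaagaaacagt
CST4: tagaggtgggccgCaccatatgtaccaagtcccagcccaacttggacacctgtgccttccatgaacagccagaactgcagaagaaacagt
Each of these GENCODE 29 transcript stretches crosses an intron, within GRCh38 chr20:23747893-23749098 (CST1), chr20:23824097-23825292 (CST2) and chr20:23685971-23687170 (CST4) on the minus strand. Over the whole coding sequence the 3 genes differ at 50 of 423 positions, and the longest run without a difference is 87 bases.

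Counted over whole transcripts in stretches of 31 bases, 64.1% of those of CST1 occur in no other gene's transcripts, as do 82.3% of those of CST2 and 51.3% of those of CST4. Of the stretches of CST4, 40.4% are also in CST1 and 17.6% in CST2. CST3 and CST7 share almost nothing with other genes (99.97% and 100% of their stretches are their own), and CSTB shares 2.66%. The separate levels of CST1, CST2 and CST4 thus depend on how the quantification split shared reads, which was not tested, and their sum and ratios are therefore given after the single genes.

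CST1 was the most abundant of the 6 and stood 152nd of all 60719 genes by mean level, at 0.102% of all transcripts. CST3 followed in place 274, CSTB in place 357 and CST4 in place 579, whereas CST2 was in place 5699 and CST7 in place 9103. Because TPM is scaled by length, these levels can be compared between genes. Fewer cells with a transcript and less of it per cell cannot be told apart in such bulk samples.

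CST1, which encodes cystatin SN, an inhibitor secreted by salivary glands and by several carcinomas, was at 838, 805 and 841 TPM in the 3 TIS sEV libraries. It was at 1140.3, 1136 and 1161 TPM with Cont sEV and at 1098, 1037 and 1096 TPM with No sEV. Every TIS sEV library lay below all others, and every Cont sEV library lay above every No sEV library. The mean was 828 ± 20.02 TPM (SD, n = 3) with TIS sEV, 1146 ± 13.2 TPM with Cont sEV and 1077 ± 34.5 TPM with No sEV. The log2 difference of TIS sEV was -0.47 (95% interval -0.53 to -0.40) against Cont sEV, where the means differed by -27.7%, and -0.38 (-0.44 to -0.32) against No sEV, where they differed by -23.1%. With any 1 library left out these differences stayed from -0.48 to -0.45 and from -0.41 to -0.36.

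CST4, which encodes cystatin S, a secreted inhibitor of saliva and tears, was at 213, 213 and 224 TPM with TIS sEV. The level was 301, 310.3 and 287 TPM with Cont sEV and 276, 251 and 278 TPM with No sEV. The 3 groups were again in the order Cont sEV, No sEV, TIS sEV with no overlap between any of them. Means were 217 ± 6.57 TPM with TIS sEV, 299 ± 11.7 TPM with Cont sEV and 268.35 ± 15.002 TPM with No sEV (SD, n = 3 each). The log2 difference was -0.46 (95% interval -0.56 to -0.36) against Cont sEV and -0.31 (-0.41 to -0.21) against No sEV.

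CST2, which encodes cystatin SA, had levels far below those of its relatives. It was at 22.5, 20.5 and 21.1 TPM with TIS sEV, at 28.1, 25.7 and 28.2 TPM with Cont sEV and at 25.7, 26.6 and 24.97 TPM with No sEV. The TIS sEV libraries lay below all others, while Cont sEV and No sEV overlapped. The log2 difference of TIS sEV was -0.34 (95% interval -0.46 to -0.22) against Cont sEV and -0.26 (-0.38 to -0.14) against No sEV.

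**Figure D1:**
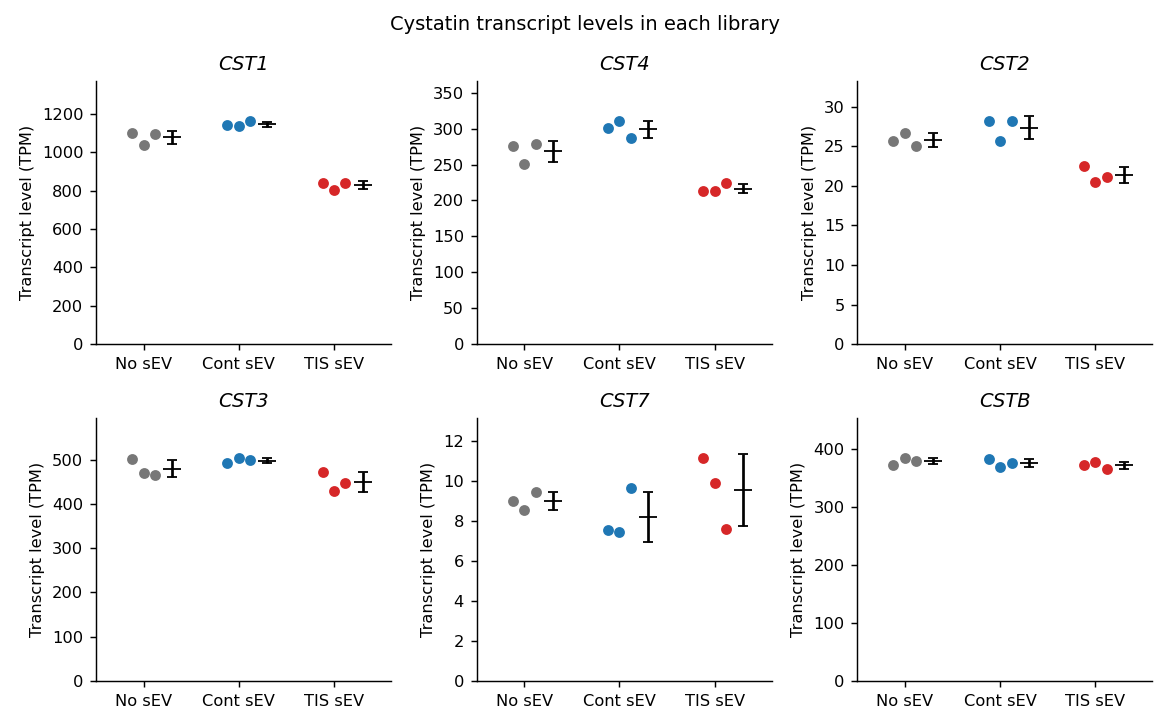
Transcript level in TPM (y axis, from 0) of the 6 cystatin genes in each of the 9 libraries, 1 point per library, with the group mean and SD (n = 3) in black. The TIS sEV points of CST1, CST4 and CST2 sit below all points of both other groups, and those of CSTB, between 365 and 378 TPM, overlap with both other groups.

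CST3 encodes cystatin C, a secreted inhibitor made by nearly all nucleated cells and a strong one for cathepsins. Its level was 472, 429 and 447 TPM with TIS sEV, 492, 504 and 499 TPM with Cont sEV and 502, 470.2 and 466 TPM with No sEV. TIS sEV lay below Cont sEV without overlap, but overlapped with No sEV. The log2 difference was -0.15 (95% interval -0.23 to -0.06) against Cont sEV and -0.09 (-0.18 to -0.01) against No sEV. Both estimates were smaller in size than those of CST1, CST4 and CST2, a difference between genes that was not tested.

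CST7 encodes cystatin F, which in leukocytes is sent to lysosomes and controls cathepsin C there. Its level was 11.1, 9.87 and 7.60 TPM with TIS sEV, 7.54, 7.41 and 9.61 TPM with Cont sEV and 8.98, 8.52 and 9.42 TPM with No sEV. All 3 groups overlapped, and the spread was wide, with an SD of 18.8% of the mean with TIS sEV and 15.1% with Cont sEV. The log2 difference of TIS sEV from Cont sEV was 0.19 with an interval from -0.10 to 0.48, which includes differences in either direction. The leukocyte markers PTPRC, CD3E and ITGAM each averaged under 1 TPM in every group. PTPRC averaged 0.705 TPM with No sEV, 0.159 TPM with Cont sEV and 0.669 TPM with TIS sEV. It reached 1.41 TPM in No sEV replicate 1 and 1.10 TPM in TIS sEV replicate 1, where CST7 was at 8.98 and 11.1 TPM. A link of PTPRC with CST7 was not tested.

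CSTB encodes cystatin B, the cytosolic and nuclear inhibitor whose loss causes a progressive myoclonus epilepsy. Its level was 372, 378 and 365 TPM with TIS sEV, 383, 369 and 377 TPM with Cont sEV and 373, 385 and 380.0 TPM with No sEV. The groups overlapped, and the log2 differences of TIS sEV were -0.02 (95% interval -0.07 to 0.04) against Cont sEV and -0.03 (-0.08 to 0.03) against No sEV. Over all 9 libraries the SD of CSTB was 1.71% of its mean, against 14.4% for CST1, 14.4% for CST4, 11.5% for CST2 and 5.44% for CST3. Among the 1688 genes that averaged 100 TPM or more the median was 3.32%, and 5.63% of them varied less than CSTB.

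**Figure D2:**
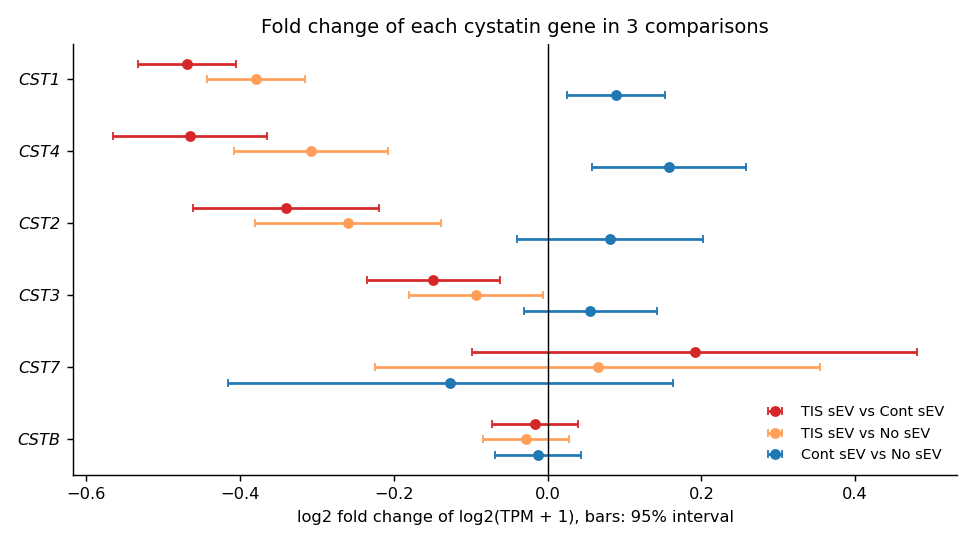
Log2 fold change on the log2(TPM + 1) scale (x axis) of each cystatin gene in TIS sEV vs Cont sEV, TIS sEV vs No sEV and Cont sEV vs No sEV, with 95% intervals from limma's fit over all 9 libraries (n = 3 per group). The intervals of CST1, CST4 and CST2 lie below 0 in both TIS sEV comparisons, down to -0.56 for CST4, while those of CST7 and CSTB include 0 in all 3 comparisons. CST1 and CST4 were chosen because they were lower with TIS sEV, so the TIS sEV intervals are a description and no test.

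With p-values of limma's moderated test adjusted by Benjamini-Hochberg over all 13879 genes, 2 of the 6, CST1 and CST4, were past the threshold of 0.05 in TIS sEV vs Cont sEV, both lower, where 0.0937% of all genes were (0.0504% lower and 0.0432% higher). In TIS sEV vs No sEV, CST1 was past it, where 0.00721% of all genes, which is CST1 itself, were. Because these comparisons led to the choice of the family, nothing is read from either count. Groups did not overlap, with TIS sEV lower, for 4 of the 6 genes against Cont sEV (4.47% of all genes) and for 3 of 6 against No sEV (2.77% of all genes, or 14.1% in either direction). The median log2 fold change of the 6 was -0.24 against Cont sEV and -0.18 against No sEV, beside 0.02 and 0.03 over all genes tested. Both comparisons use the same TIS sEV libraries, so they are not independent of each other. Without Cont sEV replicate 2, or without TIS sEV replicate 1, the count against Cont sEV was 1 (CST1), and the log2 difference of CST4 was -0.44 and -0.45.

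The mitochondrial share of transcripts also differed between group means, which was not tested. The 37 genes encoded in the mitochondrial genome held 2.69 ± 0.223% of all TPM with No sEV, 3.06 ± 0.427% with Cont sEV and 2.27 ± 0.227% with TIS sEV (SD, n = 3 each). Libraries ranged from 2.47% to 2.92%, 2.58% to 3.39% and 2.07% to 2.52% in that order, so No sEV overlapped with both other groups. The libraries were also rescaled with these genes left out. The log2 difference of TIS sEV from Cont sEV was then -0.48 for CST1, -0.48 for CST4 and -0.35 for CST2. Such rescaling shifts all remaining genes of a library alike, and by little where the share is small. These values therefore cannot show whether the mitochondrial and cystatin differences are linked, which was not tested.

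Control vesicles were compared with no vesicles in the same fit. CST1 and CST4 were chosen with the values of these libraries known, which may bear on their differences here. CST1 had a log2 fold change of 0.09 (95% interval 0.03 to 0.15, SE 0.03) in Cont sEV vs No sEV, with groups that did not overlap, but did not pass over all genes (limma, adjusted p = 0.789). CST4 had the largest value of the 6, 0.16 (95% interval 0.06 to 0.26, SE 0.04), also without overlap and also short of the threshold (limma, adjusted p = 0.789). CST2 was at 0.08 (-0.04 to 0.20) and CST3 at 0.06 (-0.03 to 0.14), both with overlapping groups (limma, adjusted p = 0.885 and 0.891). CST7 was at -0.13 (-0.42 to 0.16) and CSTB at -0.01 (-0.07 to 0.04), with adjusted p = 0.934 and 0.983 in limma's test.

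In Cont sEV vs No sEV 0 of the 6 genes thus passed limma's test, as did 0 of all 13879 genes, which is 0%. CST1 and CST4 had an unadjusted p under 0.05, as did 837 of all genes. Groups did not overlap, with Cont sEV higher, for 2 of the 6 and for 6.72% of all genes (11.2% in either direction). The intervals leave room for a rise of CST1 by 0.15 and of CST4 by 0.26 on the log2 scale, so the missed threshold does not show that control vesicles left these genes as they were.

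The 3 close relatives stood in similar proportions to each other in all libraries. CST1 made up 77.2% to 78.9% of the sum of CST1, CST2 and CST4 in the 9 libraries, CST4 19.1% to 21.1% and CST2 1.74% to 2.10%. The ratio of CST4 to CST1 was 0.254, 0.264 and 0.266 with TIS sEV, 0.264, 0.273 and 0.247 with Cont sEV and 0.251, 0.242 and 0.254 with No sEV. TIS sEV and No sEV each overlapped with Cont sEV, but every TIS sEV ratio was above every No sEV ratio (0.2542 or more against 0.2537 or less). The ratio of CST2 to CST1 was 0.0250 to 0.0269 with TIS sEV, 0.0226 to 0.0247 with Cont sEV and 0.0228 to 0.0257 with No sEV. For CST2, every TIS sEV ratio was thus above every Cont sEV ratio, while No sEV overlapped with both other groups.

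The sum of the 3 does not depend on how reads common to them were split among them, apart from their small difference in length. Of their 31-base stretches, 2.49% (CST1), 1.25% (CST2) and 1.39% (CST4) also occur in CST5. Some of CST1 and CST4 also occur in CST3 and the pseudogene CSTP2, so reads shared with genes outside the 3 can still bear on the sum. The sum was 1073, 1038 and 1086 TPM with TIS sEV, 1469, 1472 and 1476 TPM with Cont sEV and 1400.1, 1315 and 1399 TPM with No sEV. The order of the groups was that of CST1 alone, and no group overlapped with another. The log2 ratio of group means stayed from -0.48 to -0.45 for TIS sEV against Cont sEV with any 1 library left out.

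CST3 and CSTB had a higher ratio to CST1 in each TIS sEV library than in any library of the other groups. The ratio of CST3 to CST1 was 0.564, 0.533 and 0.532 with TIS sEV, against 0.430 to 0.444 with Cont sEV and 0.426 to 0.457 with No sEV. That of CSTB to CST1 was 0.434 to 0.470 with TIS sEV, 0.324 to 0.336 with Cont sEV and 0.340 to 0.371 with No sEV. Within the 6 genes, CST1, CST2 and CST4 together held 60.4% to 62.0% of the family's TPM with No sEV, 62.5% to 62.6% with Cont sEV and 55.7% to 57.0% with TIS sEV. The secreted salivary-type cystatins were a smaller part of the family's transcripts in the TIS sEV libraries than in any other library. Because CST1 and CST4 were chosen for low values with TIS sEV, these ratios and shares partly follow from that choice. They are a description only.

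**Figure D3:**
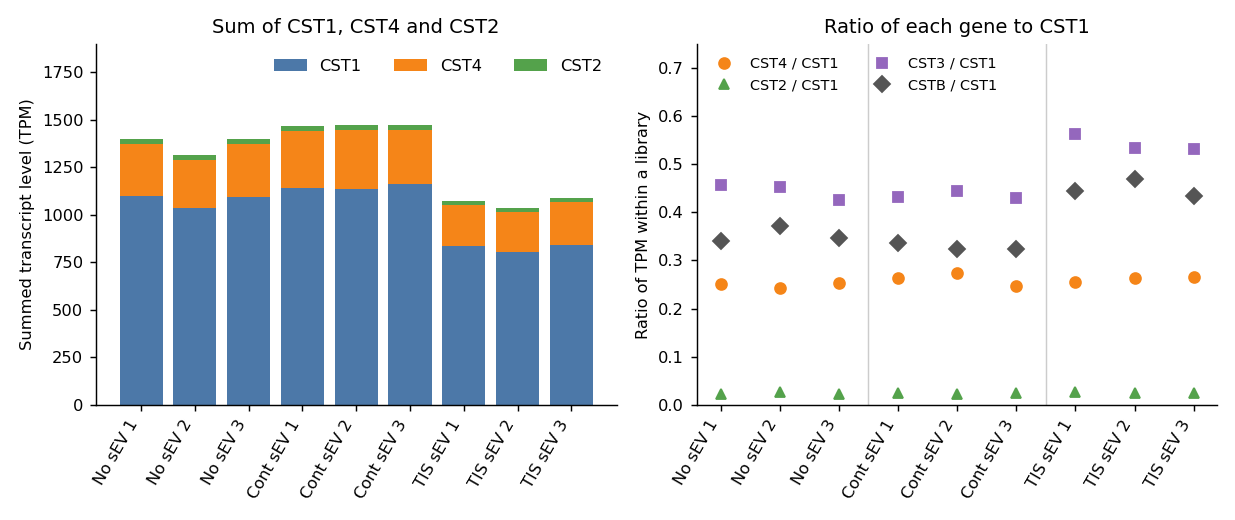
Left, stacked bars from 0 of the TPM of CST1, CST4 and CST2 in each library, and right, the ratio of the TPM of CST4, CST2, CST3 and CSTB to that of CST1 in the same library. The stacks reach 1038 to 1086 TPM with TIS sEV and 1315 TPM or more elsewhere, and the points of CST3 / CST1 and CSTB / CST1 sit higher with TIS sEV while those of CST4 / CST1 stay between 0.242 and 0.273. Points of CST2 / CST1 lie between 0.0226 and 0.0269, with each TIS sEV point above each Cont sEV point.

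The other members of the cystatin superfamily were hardly present. Of 12 such genes, 0 passed the filter on low values, and 6 were listed at 0 in all 9 libraries: the reproductive-tract genes CST8, CST9, CST9L, CST11 and CSTL1, and the kininogen gene KNG1. CST5, which encodes cystatin D and lies beside CST2, averaged 0.343 TPM with No sEV, 0.214 TPM with Cont sEV and 0.154 TPM with TIS sEV. CST6, which encodes cystatin M and is often silenced in breast cancer, averaged 0.186, 0.239 and 0.108 TPM in the same order. CSTA, the partner of CSTB among the type 1 cystatins, was listed at 0 with No sEV and averaged 0.0468 TPM with Cont sEV and 0.0525 TPM with TIS sEV. AHSG, FETUB and HRG, which encode cystatin-like plasma proteins made by the liver, averaged at most 0.0558 TPM in any group.

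Around the cluster, 39 further genes are annotated within 500 kb of the span from CST3 to CST2, of which 10 are protein-coding and 4 passed the filter on low values. NXT1, a nuclear export factor gene, was at 64.7 ± 2.84 TPM with No sEV, 61.6 ± 2.70 TPM with Cont sEV and 63.2 ± 2.22 TPM with TIS sEV (SD, n = 3 each). GZF1, a zinc finger gene, was at 10.9 ± 0.791, 10.7 ± 1.29 and 12.2 ± 1.83 TPM, and NAPB, a gene of vesicle fusion, at 5.80 ± 0.515, 5.47 ± 0.586 and 6.48 ± 1.09 TPM. The long noncoding RNA gene AL121894.2, which lies inside the span of CST3 on the same strand, was at 2.18 ± 0.476, 1.97 ± 0.831 and 1.66 ± 0.656 TPM.

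In each of the 4 the groups overlapped in all 3 comparisons, and none passed limma's test, where adjusted p for TIS sEV vs Cont sEV ranged from 0.613 for NAPB to 0.892 for AL121894.2. Their log2 fold changes in that comparison were 0.04 (NXT1, SE 0.05), 0.17 (GZF1, SE 0.11), 0.20 (NAPB, SE 0.12) and -0.15 (AL121894.2, SE 0.24). CST3, CST4, CST1 and CST2 were the cystatin genes of this region with transcripts above the filter.

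**Figure D4:**
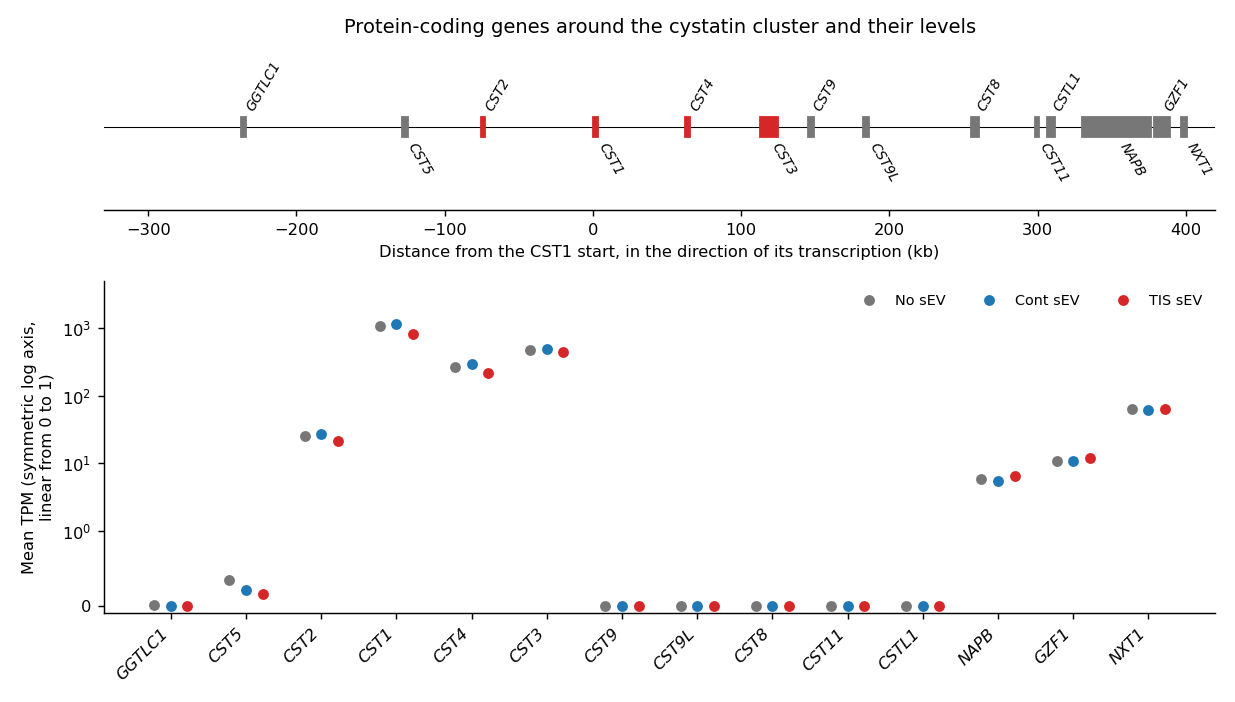
Top, map to scale of the protein-coding genes around the cystatin cluster, by distance in kb from the start of CST1 in the direction of its transcription (genes of the family described here in red). Bottom, mean TPM of each gene per group (n = 3) on a symmetric log axis, linear below 1: CST2, CST1, CST4 and CST3 are flanked by genes at or near 0, and NXT1, at 61.6 to 64.7 TPM, is the highest of the other genes.

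Genes of the proteases that cystatins block came next. All 12 listed protease genes, papain-type cathepsins and LGMN, the legumain gene, passed the filter, and together they summed to 1085 to 1096 TPM with TIS sEV, 1070 to 1079 TPM with Cont sEV and 1090 to 1106 TPM with No sEV. The 6 cystatin genes summed to 1855 to 1929, 2351 to 2361 and 2179 to 2284 TPM in the same order. CTSZ, which encodes the carboxypeptidase cathepsin Z, was at 313 ± 2.52 TPM with TIS sEV, 301 ± 4.10 TPM with Cont sEV and 310.3 ± 3.72 TPM with No sEV. CTSC, whose product activates granule serine proteases, was at 273 ± 0.388, 263 ± 1.12 and 280.4 ± 3.36 TPM.

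The widely expressed lysosomal endopeptidase genes CTSL and CTSB barely differed between group means. CTSL was at 175 ± 1.56 TPM with TIS sEV, 176 ± 4.78 TPM with Cont sEV and 174 ± 3.28 TPM with No sEV, and CTSB at 125 ± 1.29, 126 ± 0.512 and 124 ± 4.21 TPM. LGMN, which encodes an asparaginyl protease that CST3, CST6 and CST7 products can also block, was at 106 ± 3.58, 108 ± 0.290 and 107 ± 1.04 TPM. CTSS, at 33.9 to 35.9 TPM, and CTSH and CTSF, at 25.1 to 29.2 TPM, were lower in mean level, and CTSW, CTSO, CTSK and CTSV averaged under 5 TPM in every group.

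Of these 12 genes 0 passed limma's test in TIS sEV vs Cont sEV, where 0.0937% of all genes did, and 2 had an unadjusted p under 0.05, as had 1388 of all 13879 genes. Those were CTSZ, with a log2 fold change of 0.06 (SE 0.02, limma, adjusted p = 0.455), and CTSC, with 0.05 (SE 0.02, limma, adjusted p = 0.461). In both, all TIS sEV libraries were above all Cont sEV libraries, as in 10.9% of all genes tested. CTSC was also lower with Cont sEV than with No sEV, at -0.09 (SE 0.02, limma, adjusted p = 0.640), again without overlap and without passing. Cont sEV lay below No sEV without overlap in 4.47% of all genes. The median log2 fold change of the 12 in TIS sEV vs Cont sEV was -0.01, beside 0.02 over all genes.

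Of 22 other lysosomal genes 0 passed limma's test in any of the 3 comparisons, with a median log2 fold change of -0.01 in TIS sEV vs Cont sEV beside 0.02 over all genes. An unadjusted p under 0.05 was found for 4 of the 22 there, against 1388 of all 13879 genes, of which 0.0937% passed after adjustment. PSAP, the precursor of the saposins, was at 609.97 ± 11.4 TPM with TIS sEV and 645 ± 15.4 TPM with Cont sEV (log2 fold change -0.08, limma, adjusted p = 0.350). MANBA, the beta-mannosidase gene, was at 7.32 ± 0.256 against 6.24 ± 0.448 TPM (0.20, limma, adjusted p = 0.383). TPP1 and HEXA, which encode a tripeptidyl peptidase and a hexosaminidase subunit, were at -0.11 and -0.09 (limma, adjusted p = 0.440 and 0.495). CTSD, the aspartic cathepsin gene that cystatins do not block, was the most abundant lysosomal protease gene, at 543 ± 13.5, 559 ± 8.45 and 557 ± 20.2 TPM with TIS sEV, Cont sEV and No sEV.

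Calpains are cytosolic cysteine proteases with an inhibitor of their own, calpastatin, encoded by CAST. Of the 8 genes of that system 0 passed limma's test in any comparison. Over all genes, 0.0937% passed in TIS sEV vs Cont sEV, 0.00721% in TIS sEV vs No sEV and 0% in Cont sEV vs No sEV. In TIS sEV vs Cont sEV 0 of the 8 had an unadjusted p under 0.05, against 1388 of all 13879 genes. The median log2 fold change in that comparison was 0.00, beside 0.02 over all genes. CAST was at 171 ± 4.34 TPM with TIS sEV, 171 ± 9.89 TPM with Cont sEV and 165 ± 7.55 TPM with No sEV. CAPN15 had the smallest p of the 8 in TIS sEV vs Cont sEV, with a log2 fold change of 0.12 (SE 0.06, limma, adjusted p = 0.564).

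Inhibitors of other protease classes were listed as well. Of 20 such genes 17 passed the filter and 0 passed limma's test in any comparison. In TIS sEV vs Cont sEV 3 had an unadjusted p under 0.05, as had 1388 of all 13879 genes, of which 0.0937% passed after adjustment. Their median log2 difference in TIS sEV vs Cont sEV was 0.02, beside 0.02 over all genes. SERPINB2, which encodes the plasminogen activator inhibitor PAI-2, was at 108 ± 3.66 TPM with TIS sEV, 99.6 ± 2.52 TPM with Cont sEV and 92.5 ± 3.57 TPM with No sEV. Its log2 fold change was 0.12 against Cont sEV (limma, adjusted p = 0.359) and 0.22 against No sEV (adjusted p = 0.181). Every TIS sEV library of SERPINB2 was above every library of the other 2 groups, whereas for CST1 every one was below them. TIS sEV lay above Cont sEV without overlap in 10.9% of all genes, and above No sEV in 11.3%.

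SERPINB8 and SERPINA1, at 28.9 ± 2.08 and 80.9 ± 1.31 TPM with TIS sEV, had log2 fold changes of -0.14 and -0.08 against Cont sEV (limma, adjusted p = 0.413 and 0.532). Against No sEV, 0.00721% of all genes passed and 0 of the 59 tested genes of these lists did, with 4 unadjusted p under 0.05. In Cont sEV vs No sEV 0% of all genes passed and 0 of the 59 did, with 8 unadjusted p under 0.05. In TIS sEV vs Cont sEV the 59 held 9 unadjusted p under 0.05, as did 1388 of all genes.

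**Figure D5:**
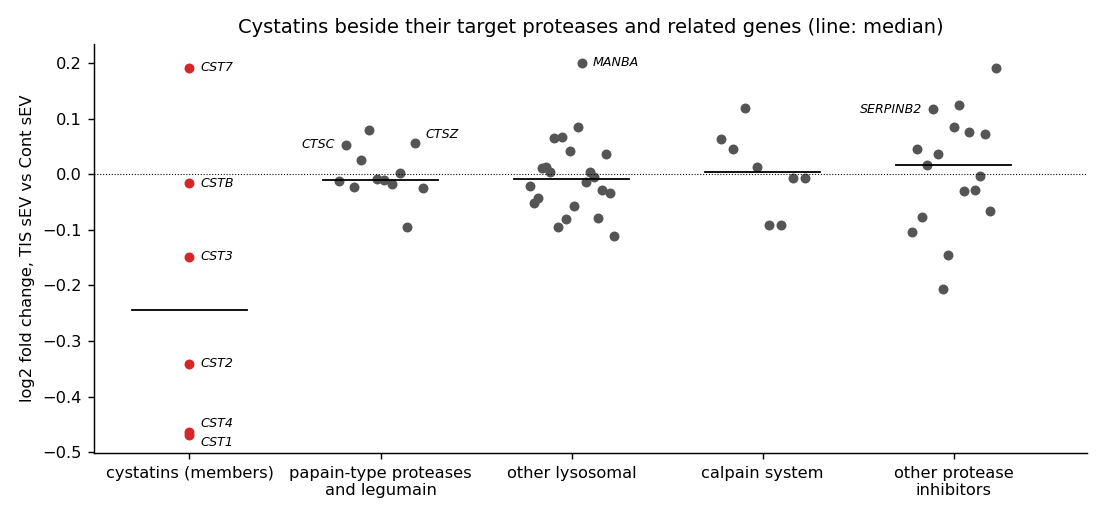
Log2 fold change in TIS sEV vs Cont sEV (y axis) of each tested gene, 1 point per gene, for the 6 cystatin genes in red, 12 papain-type protease genes with legumain among them, 22 other lysosomal genes, 8 calpain system genes and 17 other protease inhibitor genes, with the median of each list as a line. CST1 and CST4 lie at -0.47 and -0.46, below every gene of the other lists, and the list medians other than that of the cystatins lie between -0.01 and 0.02. CST1 and CST4 were chosen because they were lower with TIS sEV, so nothing is read from their place here.

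Genes were also ranked by how alike their pattern over the 9 libraries was to that of CST1, by Pearson's r of log2(TPM + 1) among 10482 other genes averaging 5 TPM or more. CSF1, which encodes a macrophage growth factor, was in place 1 with r = 0.98 (Spearman's rho = 1) and CST4 in place 2 with 0.97 (0.92). PGF, the placental growth factor gene, was in place 3 with 0.95 (0.95), CST2 in place 4 with 0.94 (0.88) and PRSS2, a trypsinogen gene, in place 5 with 0.93 (0.88). CSF1 was at 295 ± 4.83 TPM with TIS sEV, 357 ± 11.3 TPM with Cont sEV and 339 ± 12.1 TPM with No sEV, and PGF at 25.3 ± 0.396, 28.6 ± 0.745 and 27.4 ± 0.687 TPM. Among the cystatins, CST3 was in place 37 (r = 0.84), CSTB in place 1410 (0.34) and CST7 in place 7200 (-0.38).

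The points of these correlations share their libraries and a fixed sum, most of the spread of CST1 lies between groups, and CST4 and CST2 also share sequence with CST1. On deviations from the group means alone, r with CST1 was 0.86 for CSF1, 0.70 for PGF, 0.58 for CST4, 0.58 for PRSS2 and 0.06 for CST2. The genes with the most opposite pattern were KRTAP2-3, a keratin-associated protein gene (r = -0.97), the ubiquitin-conjugating enzyme gene UBE2C (-0.96), the tissue factor gene F3 (-0.96), the mitochondrial protease gene AFG3L2 (-0.96) and the RNA-binding protein gene RBM24 (-0.96). Within groups, their r with CST1 was -0.73, -0.56, -0.13, -0.19 and -0.45 in that order. Of the 10482 genes, 11 had r of 0.9 or more with CST1 over the 9 libraries and 39 had r of -0.9 or less.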

How the data were processed

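The authors deposited 1 table of gene-level TPM for the 9 libraries. The submitters' processing notes list Salmon 1.4.0, Trim Galore 0.6.6, FastQC 0.11.9, DESeq2 1.28.0 and the build GRCh38.p13. The annotation release and the treatment of multi-mapping reads are not given in the sources used here. Groups and replicate numbers came from the labels, and 99.58% of IDs matched a symbol. Coordinates and sequences are those of GENCODE 29.

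The deposited TPM were put on a log2(TPM + 1) scale, which understates differences in weakly expressed genes. The filter was 1 TPM or more in 3 or more libraries (13879 genes). All 9 libraries entered one fit in limma 3.58.1 (R 4.3.3), with a variance trend and two-sided moderated tests, adjusted by Benjamini-Hochberg over all genes at 0.05. The steps were tested on simulated data. The members and lists were chosen with earlier results of these data known. Named were the 6 genes, genes of smallest p per list, neighbours that passed the filter and the 5 genes most and least like CST1, except for items not reported here. Other pseudocounts, filters, scalings, variance models and library subsets were tried. Promoters and proteins were not analysed here.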

Additional observations from a re-analysis of the deposited data

How the results depend on the processing

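The direction of CST1, CST2, CST3 and CST4 in all 3 comparisons was the same under every alternative run: pseudocounts of 0.1 and 0.5, no filter or at least 5 TPM, median-of-ratios and quantile scaling, mitochondrial genes left out, weights per library, a prior variance without trend, the replicate block, fits of only the 2 groups compared, and each library left out. Without the variance trend the cystatin genes past the threshold were 1 in TIS sEV vs Cont sEV (CST1) and 0 in TIS sEV vs No sEV, counts from which nothing is read for these genes. With 1 library left out they were 1 to 2 and 1 to 1. With median-of-ratios or quantile scaling they were 3 in TIS sEV vs Cont sEV, where CST2 was added. Over all genes, 14 passed there with median-of-ratios scaling and 17 with quantile scaling. The cause was not tested. CSTB in Cont sEV vs No sEV, at -0.01, ranged from -0.0248 to 0.00158 with 1 library left out. No pathway gene and no neighbour passed under any of these. Whether the replicate numbers pair the samples is not known. Deviations of same-numbered libraries of different groups had r from -0.0574 to 0.140, and those of differently numbered ones from -0.194 to 0.205. With so few libraries this cannot settle the question. The replicate block left 2 and 1 cystatin genes past the threshold, with 9 genes called in TIS sEV vs Cont sEV in place of 13. Over all genes, 13, 1 and 0 were called in TIS sEV vs Cont sEV, TIS sEV vs No sEV and Cont sEV vs No sEV. Counts were 2, 0 and 0 without the variance trend, 3, 2 and 0 in fits of only the groups compared, 13, 9 and 7 with no filter, 15, 1 and 1 with at least 5 TPM, and 2 to 13, 1 to 2 and 0 to 1 with 1 library left out. TPM keeps no depth, so the counting error behind each level, low ones such as CST7 included, is unknown.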
